A study of Mus musculus with 41 samples.

Results

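The genes described here are 38 mouse genes of the secretory pathway and of plasma cells, taken from a list by gene symbol, out of 18193 genes that the annotation of the array names by a probe set of their own. They fall into 3 plasma cell genes, 5 stress sensors and transcription factors, 11 chaperones of the endoplasmic reticulum, 4 disulfide isomerases, 8 genes of endoplasmic reticulum-associated degradation and 7 genes of translocation and signal peptide cleavage. The annotation table used here named 37 of the 38, and all 37 passed the filter on low signals that left 11947 genes to test, while Sec61g was not analysed here. Each gene was represented by its probe set with the highest mean, and 28 of the members had several probe sets to choose from.

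Signals were read from 41 Affymetrix arrays with 1 colour each, hybridised with RNA of flow-sorted cells of C57BL/6 mice that were wild type for Pax5, the strain and genotype all groups share; none was treated. There were 7 arrays each of the common lymphoid progenitor (CLP), fraction A and fraction B, and 5 each of fractions C, D, E and F. Hardy's fractions order B cell development, as background, from pre-pro-B cells (A) over pro-B cells (B), large pre-B and late pro-B cells (C), small pre-B cells (D) and immature B cells (E) to mature recirculating B cells (F). The labels give no age, tissue or sorting gates and do not state whether the arrays are of separate animals. The p-values therefore reflect only how far these samples scatter, and that scatter may be technical. Precision is limited by the number of arrays. None of the 7 groups is a plasma cell by its label, and in bulk RNA fewer cells of a type and less RNA per cell cannot be told apart.

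The endoplasmic reticulum is where secreted and membrane proteins, antibodies among them, enter the secretory pathway, are folded by chaperones and disulfide isomerases, and are sent back to the cytosol for degradation when they fail to fold. A build-up of unfolded protein is read by membrane sensors (IRE1, PERK and ATF6), and the unfolded protein response that follows induces chaperones, degradation factors and translocation components. When a mature B cell becomes a plasma cell, XBP1 drives the expansion of this machinery, and the J chain and syndecan-1 appear as plasma cell products.

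Many promoters that answer this response carry the endoplasmic reticulum stress element (ERSE), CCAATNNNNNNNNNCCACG, which is shown first because several members share it. Members were listed in part as genes of this response, so a share above that of all genes is partly built into the list. Promoters from 250 bases before to 50 bases after the transcription start were read from the RefSeq table for GRCm38.p6, which held 32 of the 38 members; Atf6, Hyou1, Manf, Derl1, Sec61a1 and Sec11c were not in it. Searched on both strands, ERSE lay in the promoter of 9 of the 32 members and of 0.137% of 27025 genes. Its sites are printed 5′ to 3′ from the CCAAT side with the motif in capitals.
Hspa5, chr2:34772010-34772058, plus strand: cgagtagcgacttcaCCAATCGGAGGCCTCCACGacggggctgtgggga
Calr, chr8:84847060-84847108, plus strand: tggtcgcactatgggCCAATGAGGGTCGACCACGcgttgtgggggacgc
Hsp90b1, chr10:86705623-86705671, minus strand: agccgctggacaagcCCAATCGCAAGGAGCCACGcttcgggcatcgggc
Hsp90b1, chr10:86705518-86705566, plus strand: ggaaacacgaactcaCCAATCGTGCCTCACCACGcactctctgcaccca
Canx, chr11:50325785-50325833, minus strand: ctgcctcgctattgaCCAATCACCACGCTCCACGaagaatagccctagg
Dnajc3, chr14:118937812-118937860, plus strand: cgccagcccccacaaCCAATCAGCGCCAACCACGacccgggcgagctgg
Creld2, chr15:88819505-88819553, minus strand: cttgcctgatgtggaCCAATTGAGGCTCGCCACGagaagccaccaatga
Pdia6, chr12:17266476-17266524, plus strand: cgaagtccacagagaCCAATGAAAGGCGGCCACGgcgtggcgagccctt
Derl3, chr10:75893227-75893275, minus strand: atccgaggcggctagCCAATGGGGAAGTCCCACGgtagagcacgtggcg
Syvn1, chr19:6046517-6046565, plus strand: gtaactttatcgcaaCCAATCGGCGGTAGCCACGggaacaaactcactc
The related ERSE-II, ATTGGNCCACG, lay in 2 of the 32 member promoters and in 0.0444% of genes; the first bases of its 2 sites, ATTGG, are the reverse complement of the CCAAT box.
Herpud1, chr8:94386368-94386396, plus strand: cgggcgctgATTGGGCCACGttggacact
Dnajb11, chr16:22857843-22857871, plus strand: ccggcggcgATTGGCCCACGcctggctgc
The letters TGACGTGG, the core of the unfolded protein response element, were found in 0 of the 32 and in 0.714% of genes. ERSE and ERSE-II did not overlap in any member promoter. A match says only that the letters are present.

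Most members changed along the path. A moderated F-test of limma across the 7 groups passed for 34 of the 37 (adjusted p under 0.05 over all genes tested), where 73.3% of all genes tested passed. The 3 that did not were Ddit3 (adjusted p = 0.133), a transcription factor of prolonged stress, Sel1l (adjusted p = 0.134), the partner of the ubiquitin ligase Syvn1, and Derl2 (adjusted p = 0.0543), a channel component of degradation. Between lowest and highest group mean the median member spanned 2.82-fold, on the log2(signal + 32) scale that all folds and differences here use. The span was 1.63-fold at the least and 16.0-fold for Sdc1, and it was wider for Jchain, whose size depends on the constant added. The highest mean stood in the CLP for 9 members, in A for 13, in B for 3, in D for 4, in E for 7 and in F for 1 (Atf4). The lowest stood in the CLP for 1, in A for 4, in B for 6, in C for 6, in D for 8, in E for 1 and in F for 11. The same counts over all genes are not given here, so these cannot be read as a trait of the members. Scatter also differed between groups, with a median SD per gene of 0.79 in A and 0.28 in the CLP.

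**Figure D1:**
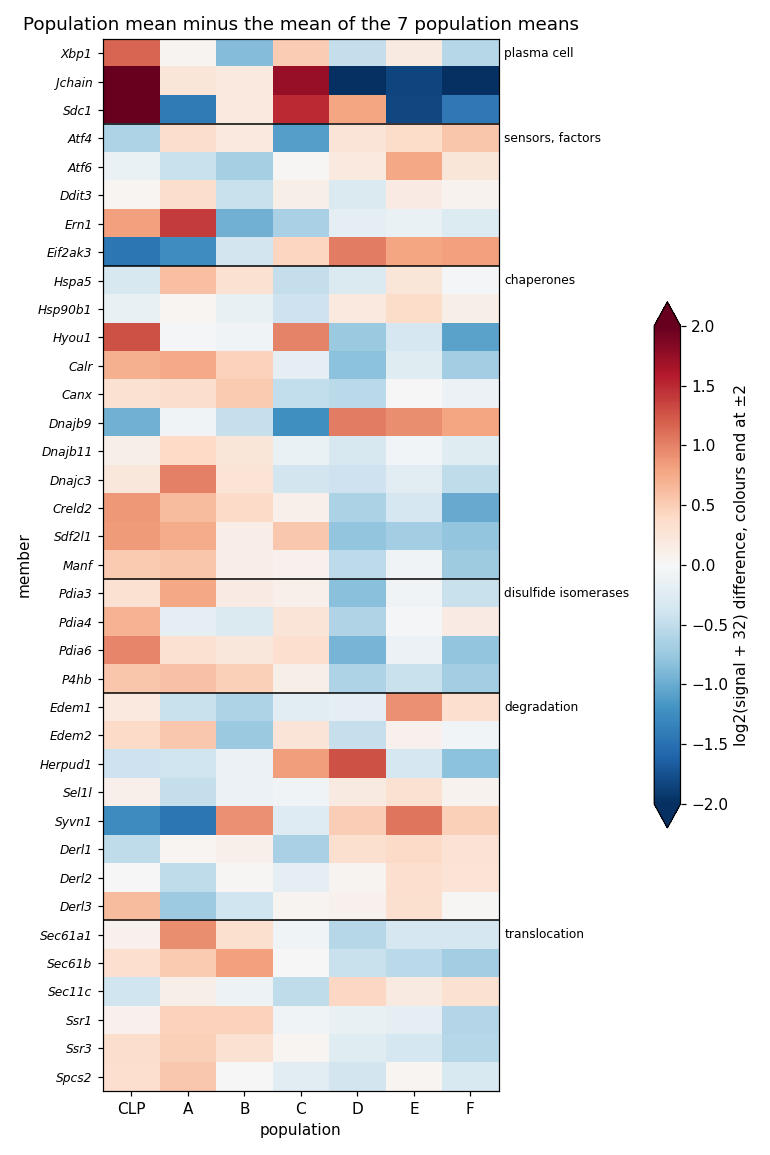
Group means of the 37 measured members (rows, by role) in the CLP and Hardy fractions A to F (columns), each as the difference from that gene's own mean over the 7 groups on the log2(signal + 32) scale. Many chaperone, isomerase and translocation rows are above their own mean in the CLP and A and below it in D and F, while Eif2ak3, Syvn1 and Dnajb9 are above theirs in D, E and F.

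In mature B cells (F) 18 members were lower and 6 higher than in the CLP (limma, adjusted p under 0.05), against a background of 26.6% of all genes tested lower and 15.2% higher. The member median was -0.53, beside -0.15 over all genes. The lower members held all 3 plasma cell genes, 7 of 11 chaperones, 3 of 4 disulfide isomerases and 4 of 6 translocation genes, and the 8 degradation genes had 0 lower and 2 higher. Markers of other cells moved too: of those tested, 3 of 5 of plasmacytoid dendritic cells, 3 of 4 of NK cells, 2 of 3 of T cells, 2 of 6 of neutrophils, 2 of 3 of cycling cells and 4 of 4 of early B cells were lower in F, and no tested marker of these lists was higher. The summed signal of the plasmacytoid dendritic cell markers was 2321.4 to 2949.2 in F, against 3344.3 to 6777.5 in the CLP. Most of the sum in F was Ly6d, at 1626.5 to 2612.2 in F and 1208.8 to 1859.9 in the CLP. Siglech, another of these markers, had 13.9 to 67.5 in F and 554.3 to 1585.1 in the CLP. For the NK markers the sum was 33.9 to 182.6 in F, against 476.3 to 1071.6 in the CLP. The part of other cells in the members' values was not tested. The CLP arrays carried B lineage signals: the mean log2 of Cd79a, Cd79b, Pax5 and Ebf1 was 10.72 to 11.70 there. It was 11.65 to 12.40 in B and 7.31 to 9.72 in A. Pax5 had 694.5 to 2095.6 in the CLP, 892.5 to 1472.9 in B and 19.8 to 446.9 in A. Which cells of the CLP sort carried these signals was not tested. For 22 members the F and CLP arrays did not overlap, where 36.3% of all genes had no overlap. Of the 24 calls, 21 were kept in every alternative run, and the others, Pdia3, Derl1 and Canx, are named with theirs below.

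**Figure D2:**
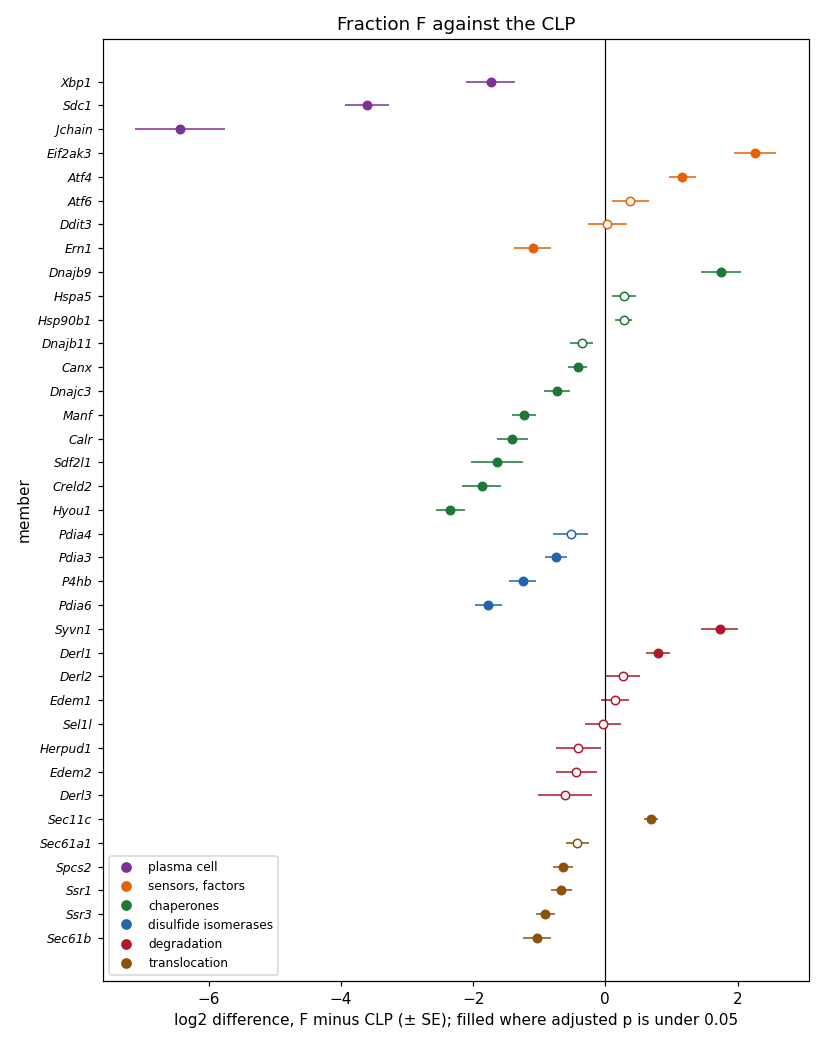
Difference of each measured member between F and the CLP (horizontal axis, log2 of signal + 32, F minus CLP, bars are standard errors), grouped by role in colour, with filled points for members that passed and open points for those that did not. The 18 lower members run from Jchain at -6.44 to Canx at -0.42, and the 6 higher ones from Sec11c at 0.69 to Eif2ak3 at 2.27.

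The steps along the path went in different directions. In A against the CLP 9 members rose and 8 fell, where 11.5% of all genes were higher and 25.5% lower, and the member median was 0.05 beside -0.22 for all genes. In B against A 3 rose and 9 fell (background 16.8% and 14.5%), and in B against the CLP, which leaves A out, 6 rose and 10 fell (background 8.77% and 18.9%). In C against B 5 rose and 10 fell, where 14.2% of all genes were higher and 8.8% lower; the member median was -0.22 and that of all genes 0.19.

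The scaling of the arrays mattered for these early steps. The array medians of B were 69.7 to 92.7, against 110 to 130.4 in the CLP, and centring every array on its median moved the median of all genes in B against the CLP to 0.22, beside -0.20 as deposited, and that of C against B to -0.23, beside 0.19. The split of higher and lower members then became 13 and 6 in B against the CLP, 2 and 17 in C against B, 4 and 3 in B against A, and 12 and 5 in A against the CLP. All genes then had 21.9% higher and 7.31% lower in B against the CLP, 4.55% and 19.3% in C against B, 24.6% and 9.52% in B against A, and 17.3% and 14.9% in A against the CLP. Quantile normalization gave 3 and 16 in B against the CLP, 3 and 6 in C against B, and 5 and 9 in A against the CLP, where all genes had 6.8% and 11.5%, 8.6% and 7.13%, and 12.5% and 21.2% in the same order. With a gene's probe sets averaged, 2 members were higher and 13 lower in B against the CLP. The split was 8 and 4 in C against B, and 4 and 7 in A against the CLP. Of all genes, 683 were then higher and 2591 lower in B against the CLP, 2217 and 653 in C against B. In A against the CLP 957 of all genes were higher and 3502 lower. These are counts and not shares, because the number of genes tested after averaging is not given here. The balance of directions in these steps was therefore not stable, and the gene values below are those on the deposited scale.

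From C to F the array medians differed less. In D against C 5 members rose and 8 fell (background 7.46% and 13.6%), and the lower ones included all 4 disulfide isomerases. Without C array 1, 5 members fell, where 10.8% of all genes were lower. In the same step 5 of 6 neutrophil markers (median -1.82) and 4 of 4 NK markers (median -2.25) were lower. Their summed signals were 15958.4 to 21263 in D against 47665.9 to 63873.4 in C for neutrophils, and 35.4 to 161.6 in D against 578 to 5250.9 in C for NK cells, and 2 of 5 plasmacytoid dendritic cell markers were lower as well. Their part was not tested. In E against D 4 rose and 2 fell (background 3.89% and 4.21%): the calnexin gene Canx, Pdia3, Pdia6 and the degradation factor Edem1 rose, and Sdc1 and Herpud1 fell. The call of Canx was lost in 4 alternatives and that of Pdia6 in 3. The member median was 0.27 beside 0.01 for all genes, and 29 of the 37 differences were above 0, as were 51.3% of those of all genes. In F against E limma called 0 members higher and 0 lower, where 0.259% of all genes were called higher and 0.209% lower, while at an unadjusted p under 0.05 limma had 8 members lower and 0 higher (3.57% and 2.57% of all genes). The difference was below 0 for 32 of the 37 there and for 53.5% of all genes, and 10 members had no overlap between F and E arrays, all lower in F, where 3.21% of all genes had no overlap and were lower. With only the groups compared in the fit, 15 members rose in E against D (12.8% of all genes) and 9 fell in F against E (2.4% of all genes). Array weights gave 14 higher in E against D (13.2% of all genes) and 6 lower in F against E (2.17%).

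**Figure D3:**
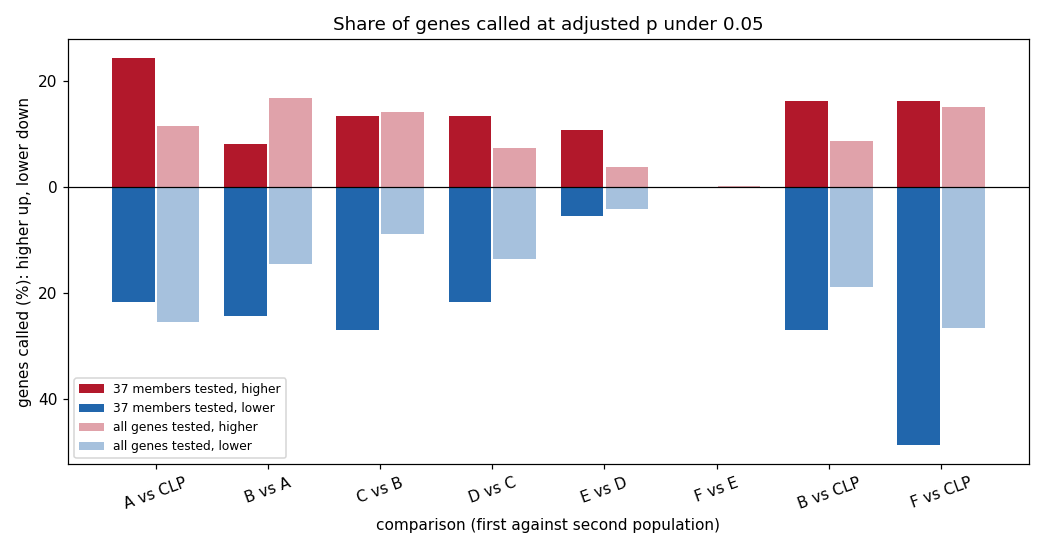
Percent called higher (upward bars) and lower (downward bars) at an adjusted p under 0.05 in each comparison, for the 37 measured members and for all 11947 genes tested. The widest gaps, with members above the background, are lower calls in F against the CLP (48.6% beside 26.6%), lower calls in C against B (27.0% beside 8.8%) and higher calls in A against the CLP (24.3% beside 11.5%). The counts in C against B and A against the CLP changed with the scaling. F against E has no member called.

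The plasma cell genes were lower in F than in the CLP. Xbp1 encodes the transcription factor that the sensor IRE1 activates by splicing, and the array does not separate the spliced form. Its lowest, median and highest signals were 1257.4, 1462.9 and 3739.5 in the CLP, 248.6, 1255.8 and 1625.1 in A and 131, 502.7 and 898.2 in B. It had 1206.2, 881.5, 899.1, 1241.8 and 1593.8 on the C arrays and 565.1, 675.8, 556.9, 543.8 and 479.5 on the D arrays. On the E arrays it had 896.2, 821.6, 1009.6, 938.6 and 827.5, and on the F arrays 770.2, 402.7, 542.6, 431 and 522. Every F array lay below every CLP array (log2 difference ± standard error, as for all differences, -1.74 ± 0.37, adjusted p = 0.000182), and so did every B array (-2.02 ± 0.34, adjusted p = 1.27e-05). C was higher than B (1.37 ± 0.37, adjusted p = 0.00527), although the call was lost with median centring and with the mean of its 4 probe sets. The D, E and F groups did not overlap between neighbours, with E above both others, but E against D (adjusted p = 0.468) and F against E (adjusted p = 0.873) did not pass. The fall in A against the CLP (-1.11 ± 0.34, adjusted p = 0.00841) was lost in 4 alternatives, among them leaving out A arrays 4, 6 and 7, which had 371.5, 248.6 and 549.1 in that order.

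Jchain, which encodes the peptide that joins IgM and IgA into polymers, had the widest range of the members. It had 1053.3, 6636.2 and 18935.6 at the lowest, median and highest CLP array, 122.5, 201.9 and 1121.8 in A and 50.2, 388.6 and 1477.5 in B. The C arrays had 6527.6, 1218, 703.2, 236.2 and 490.5, and the D arrays 40.3, 27.9, 57, 52.3 and 2.5. It was 43.4, 164.9, 30, 21.4 and 38.7 in E and 12.9, 2.5, 34.5, 23 and 83.3 in F. No D, E or F array other than E array 2 was above 100 signal units, while every CLP array was above 1000. The difference in F against the CLP was -6.44 ± 0.68 (adjusted p = 2.84e-10), in A against the CLP -3.88 ± 0.62 (adjusted p = 3.98e-06) and in D against C -3.90 ± 0.73 (adjusted p = 0.000127). Since the D, E and F signals, E array 2 aside, are below their arrays' medians, the size depends on the constant added: F against the CLP ranged from -7.93 to -5.04 over the alternatives.

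The CLP arrays differed among themselves in Jchain, and other plasma cell markers moved with it. CLP arrays 6 and 7 had 16091.7 and 18935.6 for Jchain, the highest of all arrays, and also the highest CLP signals for Prdm1 (274.3 and 406.4), the repressor that drives plasma cell fate, for Tnfrsf17 (189.6 and 224), a plasma cell survival receptor, and for Xbp1 (2913.3 and 3739.5). Tnfrsf17 was over the array median on 2 of 7 CLP arrays, 1 of 7 A arrays and none of the B to F arrays. In F the 5 plasma cell markers, Prdm1, Irf4, Mzb1, Tnfrsf17 and Slamf7, had a summed signal of 7301.6 to 9008.9. It was 1247.2 to 6225.3 in the CLP. Irf4 was at 3824.4 to 4823.4 in F against 277.4 to 1383.7 in the CLP, and at least 2320.5 on every B, C, D and E array. CLP array 7 had the highest CLP signal of each of the 5 markers, with 1383.7 for Irf4, 3023 for Mzb1 and 1188.2 for Slamf7. In C, array 1 had 6527.6 for Jchain and the highest C signals for Siglech (1659.9), a plasmacytoid dendritic cell marker, and Gzma (3931.6), an NK cell granzyme. The part of other cells in these values was not tested.

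The Jchain promoter holds none of the 3 motifs. The 250 bases before the start of Jchain (RefSeq, GRCm38.p6, chr5:88527898-88528147, minus strand) are shown because it is the member that changed most.
Jchain: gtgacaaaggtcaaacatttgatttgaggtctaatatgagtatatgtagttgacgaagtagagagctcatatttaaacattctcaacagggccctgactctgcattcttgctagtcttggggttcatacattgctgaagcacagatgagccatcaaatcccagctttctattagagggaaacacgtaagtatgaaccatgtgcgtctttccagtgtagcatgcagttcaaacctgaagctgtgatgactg

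Sdc1, the gene of the heparan sulfate proteoglycan syndecan-1 (CD138), by which plasma cells are sorted, followed a course with 2 falls. Its lowest, median and highest signals were 2543.4, 3166.7 and 3944.6 in the CLP, 35, 289.8 and 662.7 in A and 499.6, 834.2 and 941.1 in B. C arrays had 2272.5, 1808.1, 2411.6, 1421.8 and 1872.9, and D arrays 1071.6, 1424.7, 1025.2, 1276.9 and 1109.1. E arrays had 130.8, 178.2, 176.3, 171.4 and 175.1, and F arrays 105.4, 251.7, 187.2, 430.8 and 266.9. No A array reached the lowest CLP array, no C array was as low as the highest B array, and every E array lay below every D array. Sdc1 fell in A against the CLP (-3.59 ± 0.31, adjusted p = 1.91e-12), rose in B against A (1.60 ± 0.31, adjusted p = 7.38e-05) and in C against B (1.30 ± 0.34, adjusted p = 0.00381), and fell in E against D (-2.61 ± 0.36, adjusted p = 1.09e-06). F ended below the CLP (-3.61 ± 0.34, adjusted p = 1.01e-11) and did not pass against E (0.40 ± 0.36, adjusted p = 1).

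**Figure D4:**
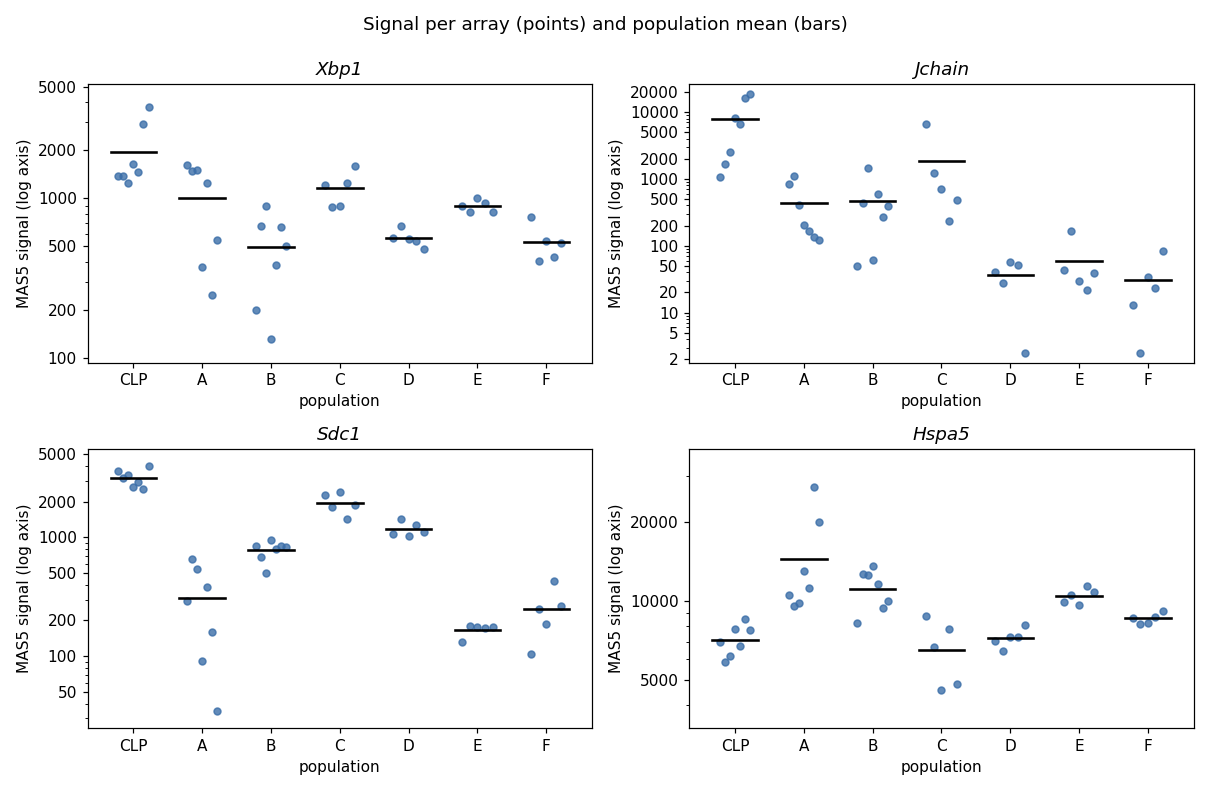
Signal of Xbp1, Jchain, Sdc1 and Hspa5 on each of the 41 arrays (points, log axis) with the group mean (bars), from the CLP to fraction F. Jchain is above 1000 on every CLP array and at most 164.9 on every D, E and F array, and Sdc1 is between 1025.2 and 1424.7 in D and at most 178.2 in E.

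Among the sensors and their factors, 2 rose and 1 fell in F against the CLP. Eif2ak3 encodes PERK, the kinase that phosphorylates the translation factor eIF2α under stress. It had 339.6, 468 and 654.4 at the lowest, median and highest CLP array, 90.7, 736.7 and 998.7 in A and 500.5, 1197.9 and 1649 in B. The C arrays had 1068.5, 1201.6, 2364.5, 3128.7 and 2092, and the D arrays 2512.3, 2270.3, 2860.9, 2980.7 and 3312.9. In E it had 2416.3, 2194.5, 2581.3, 2403.1 and 2215.5, and in F 2312, 2348.3, 2474.1, 2506.2 and 2437.4. All C, D, E and F arrays were above all CLP arrays, and F against the CLP was 2.27 ± 0.32 (adjusted p = 2.06e-07). The rise in B against A (0.89 ± 0.29, adjusted p = 0.0174) was lost without A array 4, whose signal was 90.7. Atf4, the transcription factor whose translation PERK activity favours, averaged 7997 ± 1049 in F and 3541 ± 408 in the CLP (mean ± SD, n = 5 and 7, as for all means of F and the CLP), with no overlap (log2 difference 1.17 ± 0.20, adjusted p = 1.02e-05). It was lowest in C, at 2539 ± 425, where every array was below every B array (-1.30 ± 0.20, adjusted p = 6.25e-06) and every D array (1.36 ± 0.22, adjusted p = 1.47e-05 for D against C). The size depended on the probe set. Another probe set of Atf4 was flatter, with means of 2597 in the CLP, 2920 in B, 2548 in C, 3180 in D and 3461 in F. Over the alternatives C against B ran from -1.72 to -0.43, with the call kept.

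Ern1, which encodes the sensor kinase and RNase IRE1α, moved the other way. Its lowest, median and highest signals were 700.9, 872.9 and 1447.5 in the CLP, 493.1, 1429.7 and 2819.2 in A and 136.7, 308.2 and 393.1 in B. C arrays had 267.8, 345.8, 513.3, 290.7 and 260.6, and D arrays 404.4, 534, 424.8, 516 and 442.6. E arrays had 586.5, 527.7, 383.6, 410.9 and 511.5, and F arrays 516.4, 498.8, 290.1, 430.6 and 460.7. The highest B array lay below the lowest A array, and Ern1 fell in B against A (-2.35 ± 0.25, adjusted p = 4.45e-10). Every B, C, D, E and F array lay below every CLP array, and F against the CLP was -1.10 ± 0.28 (adjusted p = 0.00136). Atf6, the sensor that is cleaved in the Golgi, passed the F-test (adjusted p = 0.00038) but none of the 8 comparisons, with means between 1100.4 ± 215 in B and 3061 ± 759 in E. Ddit3 (CHOP) averaged 525 ± 81.2 in F and 514 ± 72.7 in the CLP, a difference of 0.03 ± 0.30, adjusted p = 0.95, and its fall in B against A (-0.79 ± 0.27, adjusted p = 0.0222) was lost in 8 alternatives, among them leaving out A array 6, A array 7 or B array 2.

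Chaperones were mostly lower in F than in the CLP, but Hspa5 did not pass. Hspa5 encodes BiP, the Hsp70 of the endoplasmic reticulum that also holds the sensors inactive. Its lowest, median and highest signals were 5855.5, 6953.8 and 8531.6 in the CLP, 9583.3, 11223 and 27109.3 in A and 8219, 11629.9 and 13580.1 in B. The C arrays had 8736.1, 6688.8, 4598.4, 7815.3 and 4823.2, and the D arrays 7067, 6475.3, 7262.7, 7287 and 8074.3. In E they were 9908.9, 10538.2, 9670.2, 11366.1 and 10871.1, and in F 8607.7, 8179.6, 8276.5, 8722.8 and 9183.7. Every A array exceeded every CLP array (0.92 ± 0.16, adjusted p = 2.39e-05), C was below B (-0.79 ± 0.18, adjusted p = 0.00104, a call lost with quantile normalization), and F against the CLP did not pass (0.28 ± 0.18, adjusted p = 0.216). E stood above D and F without overlap, yet neither step passed (adjusted p = 0.0896 for E against D and 1 for F against E).

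The 250 bases before the start of Hspa5 (RefSeq, GRCm38.p6, chr2:34771840-34772089, plus strand) are given as the fuller context of the first ERSE above, whose letters are again in capitals.
Hspa5: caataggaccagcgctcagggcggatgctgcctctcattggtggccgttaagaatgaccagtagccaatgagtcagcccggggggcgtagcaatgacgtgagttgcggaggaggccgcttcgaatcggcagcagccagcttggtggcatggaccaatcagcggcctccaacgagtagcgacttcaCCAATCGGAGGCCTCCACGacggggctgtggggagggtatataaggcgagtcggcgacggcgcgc

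Hyou1, a large Hsp70-like chaperone that serves BiP as a nucleotide exchange factor, had the widest range of the chaperones. It had 2336.3, 2900 and 5709.7 at the lowest, median and highest CLP array, 722.8, 1404.6 and 1653.5 in A and 893.1, 1145.3 and 1782.9 in B. C arrays had 3774.2, 2836, 2415.9, 2097 and 1864.1, and D arrays 762.3, 862.5, 715, 702.5 and 636.7. E arrays had 749.5, 780.1, 1163.6, 1133.8 and 1183.2, and F arrays 493.3, 592.9, 616.4, 643 and 563.8. The CLP and C were high, without overlap with their neighbours A, B and D, and F was the lowest, without overlap with E. Hyou1 fell in A against the CLP (-1.30 ± 0.20, adjusted p = 1.38e-06), rose in C against B (1.07 ± 0.22, adjusted p = 0.000263), fell in D against C (-1.74 ± 0.23, adjusted p = 6.13e-07) and ended lower in F than in the CLP (-2.35 ± 0.22, adjusted p = 6.87e-12).

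Dnajb9 (ERdj4), a co-chaperone that directs BiP to IRE1 and to misfolded proteins, was the only chaperone among the 11 called higher in F than in the CLP. Its lowest, median and highest signals were 910.3, 1218.5 and 1499.3 in the CLP, 1086.6, 2403.3 and 5918.1 in A and 712.7, 1333.3 and 4093.5 in B. The C arrays had 810, 695.5, 1321.7, 1115.3 and 1062.3, and the D arrays 5698.5, 4291.1, 4463.7, 6164.4 and 3603.5. In E it had 5710.4, 3015.1, 3833.7, 5465.1 and 4763.8, and in F 4944.3, 2980.5, 2812.9, 5596.4 and 4551. Every D array exceeded every C array (2.25 ± 0.33, adjusted p = 3.21e-06), and neither E against D nor F against E passed. F was above the CLP without overlap (1.75 ± 0.31, adjusted p = 1.18e-05).

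Of the other chaperones, 6 fell in F against the CLP. The largest of these falls were in Creld2 (772 ± 139 in F and 3031 ± 1084 in the CLP, -1.87 ± 0.30, adjusted p = 2.03e-06), a stress-induced protein of the endoplasmic reticulum, and in Sdf2l1 (370.4 ± 80.4 and 1341 ± 644, -1.64 ± 0.39, adjusted p = 0.000751), a partner of the J-domain chaperones. Calreticulin, the lectin chaperone encoded by Calr, averaged 2711 ± 634 in F and 7138 ± 1083 in the CLP (-1.41 ± 0.24, adjusted p = 7.98e-06). Manf, a secreted stress factor, averaged 1471 ± 316 in F and 3527 ± 845 in the CLP (-1.23 ± 0.18, adjusted p = 4.61e-07). The arrays of F and the CLP did not overlap for these 4. Smaller falls were seen for Dnajc3 (p58IPK, an inhibitor of PERK), at -0.73 ± 0.20, adjusted p = 0.00248, and for Canx, calreticulin's membrane-bound relative, at -0.42 ± 0.14, adjusted p = 0.0165, a call lost with median centring, without F array 1 and without F array 2. Hsp90b1 (GRP94), at 0.27 ± 0.12, adjusted p = 0.0666, and Dnajb11 (ERdj3), at -0.36 ± 0.18, adjusted p = 0.0984, did not pass. Hsp90b1 rose in D against C (0.61 ± 0.13, adjusted p = 0.000726), to 10934 ± 1052 in D against 7165 ± 747 in C, without overlap.

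The genes of the disulfide isomerases, enzymes that form and rearrange disulfide bonds, all fell in D against C on the deposited scale, with 1 probe set a gene. When probe sets were averaged, the calls of Pdia3, Pdia4 and Pdia6 were lost, and with median centring that of P4hb. In F 3 of the 4 were lower than in the CLP. Pdia6 had 1012.7, 1296 and 1431.8 at the lowest, median and highest CLP array, 612.3, 792.1 and 1062.7 in A and 507.8, 778.6 and 1074.2 in B. C arrays had 1019, 851.2, 612.4, 712.1 and 755.5, and D arrays 220.3, 397.8, 202.4, 340.4 and 441.6. E arrays had 452.2, 625.9, 570.7, 609.7 and 568.8, and F arrays 344.1, 316.4, 235, 415.4 and 425.4. D lay below C and E without overlap, and F lay below E. Pdia6 fell in D against C (-1.26 ± 0.22, adjusted p = 4.85e-05, but -0.44 and not called with the mean of its 2 probe sets), rose in E against D (0.81 ± 0.22, adjusted p = 0.0115, lost without D array 1, without D array 3 and with the mean of its 2 probe sets), and F was lower than the CLP (-1.78 ± 0.20, adjusted p = 2.2e-09). Over the alternatives the difference in F against the CLP ran from -1.87 to -0.51, with the call kept. The other probe set of Pdia6, at lower signals, had a higher mean in F (211.1) than in the CLP (115).

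Pdia3 (ERp57), which works with calnexin and calreticulin, had the same shape from C on. Its lowest, median and highest signals were 5486.4, 6399.5 and 7241 in the CLP, 5857.7, 7527.1 and 14317.8 in A and 5228.5, 5575.4 and 6644.8 in B. The C arrays had 6438.8, 5494.9, 4439.1, 6429.3 and 5241.6, and the D arrays 2759.5, 2583.3, 3257.3, 2708.2 and 3255. In E it had 4423.2, 5457.9, 4681.1, 4984.9 and 5215.1, and in F 2942.9, 4364.7, 4158.3, 3497.8 and 4321.6. D was below C and E, and F below E, in every array. It fell in D against C (-0.93 ± 0.17, adjusted p = 0.000114) and rose in E against D (0.76 ± 0.17, adjusted p = 0.00202). Its fall in F against the CLP (-0.75 ± 0.16, adjusted p = 0.000213) was lost with the mean of its 2 probe sets, as was that in D against C. P4hb (PDI itself) fell in D against C (-0.74 ± 0.22, adjusted p = 0.0124, lost with median centring) and was lower in F, at 1729 ± 95.1, than in the CLP, at 4191 ± 612 (-1.25 ± 0.20, adjusted p = 2.77e-06). Pdia4 (ERp72) fell in D against C (-0.85 ± 0.29, adjusted p = 0.0292), a call lost in 7 alternatives, of which 6 left out 1 array (C array 1, 2 or 5 or D array 1, 2 or 3), and in F against the CLP it did not pass (-0.53 ± 0.27, adjusted p = 0.107).

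The genes of endoplasmic reticulum-associated degradation had 2 of 8 members higher and 0 lower in F than in the CLP, beside 15.2% and 26.6% of all genes; the difference from the other roles was not tested. Syvn1 encodes HRD1, the ubiquitin ligase at the centre of this pathway. It had 355.1, 876 and 1162.6 at the lowest, median and highest CLP array, 351.9, 481.7 and 1574.5 in A and 1818, 3469.6 and 5834.7 in B. The C arrays had 1689.1, 1356.9, 1146.1, 1396.9 and 1493.8, and the D arrays 2221.7, 2493.1, 2103.5, 2614.4 and 2652.1. In E it had 3486.6, 4027.3, 3160, 3889.9 and 3485.2, and in F 2213.7, 2302.5, 2853.1, 2424.3 and 2101.1. The lowest B array was above the highest A array, C lay below B and D, and E lay above D and F, each without overlap. Syvn1 rose in B against A (2.37 ± 0.25, adjusted p = 4.22e-10), fell in C against B (-1.18 ± 0.28, adjusted p = 0.00155, lost with the mean of its 2 probe sets) and was higher in F than in the CLP (1.73 ± 0.28, adjusted p = 2.63e-06).

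Herpud1, a membrane protein that gathers the ligase complex, was highest in D. Its lowest, median and highest signals were 594.7, 875.3 and 1326.7 in the CLP, 110.4, 1035.4 and 2157.3 in A and 715.7, 1033.4 and 1972.2 in B. C arrays had 2339.6, 2310.6, 2039.7, 2114.3 and 2041.2, and D arrays 3115.3, 2751, 2765.8, 2913.4 and 3240.3. E arrays had 749.5, 1095.5, 852.1, 1026.8 and 1038.7, and F arrays 730.4, 801.6, 586.9, 633.9 and 594.3. Every D array was above every array of C and E, and Herpud1 fell in E against D (-1.61 ± 0.37, adjusted p = 0.00203). The rise in C against B (0.95 ± 0.34, adjusted p = 0.0375) was lost in 13 alternatives, among them leaving out any one C array or any one of B arrays 4 to 7. F against the CLP did not pass (-0.41 ± 0.34, adjusted p = 0.342).

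Edem1, a lectin that picks out misfolded glycoproteins, averaged 3759 ± 390.1 in E and 1723 ± 52.2 in D, a rise without overlap (1.11 ± 0.23, adjusted p = 0.00063). Its relative Edem2 was low throughout, with means of 137 ± 65.7 in B to 357 ± 118 in A, and fell in B against A (-1.29 ± 0.28, adjusted p = 0.000436, lost with the mean of its 2 probe sets). Derl1, a channel subunit, averaged 6729.7 ± 1033 in F and 3838 ± 468 in the CLP (0.80 ± 0.19, adjusted p = 0.000574, lost with the mean of its 4 probe sets). Derl2 (0.27 ± 0.26, adjusted p = 0.421) and Sel1l (-0.03 ± 0.27, adjusted p = 0.938) did not pass. Derl3, the derlin of secretory tissues, had low signals, with 37.5, 57.5 and 168 in F and 9.5, 130.5 and 520 in the CLP as lowest, median and highest signal (-0.62 ± 0.41, adjusted p = 0.229).

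Of the 6 measured translocation genes, 4 fell and 1 rose in F against the CLP. Sec61b encodes the beta subunit of the channel through which nascent chains enter the endoplasmic reticulum. It had 4038.1, 4759.4 and 5492.3 at the lowest, median and highest CLP array, 2970.3, 5913 and 11620.2 in A and 4936.4, 5800.2 and 10730.8 in B. C arrays had 4715.9, 3510.1, 4180.4, 3349 and 3482.4, and D arrays 3303.9, 2341.8, 3024.4, 3002.7 and 2312.3. E arrays had 2328.4, 2364.1, 2978.3, 3238.5 and 2282.5, and F arrays 2763.6, 2083.8, 2137.5, 2267.1 and 2444.8. All C arrays were below all B arrays (-0.81 ± 0.21, adjusted p = 0.00433, lost with quantile normalization), and all F arrays below all CLP arrays (-1.03 ± 0.21, adjusted p = 0.000122).

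Sec61a1, the pore subunit, was high in A. Its lowest, median and highest signals were 9359.8, 10857.4 and 13249.9 in the CLP, 12875.9, 16327.7 and 40728.7 in A and 9700.3, 12290.6 and 19120.2 in B. The C arrays had 10516.8, 9266.4, 9735, 10609.1 and 9477.1, and the D arrays 7440.3, 6458.6, 7536.9, 7196 and 6597.8. In E it had 8009.8, 8399.8, 8567.4, 8029.3 and 8150.3, and in F 9972, 9376.7, 6861.8, 6890.8 and 8518.5. A and the CLP overlapped, at 12875.9 on the lowest A array and 13249.9 on the highest CLP array. The rise in A against the CLP (0.85 ± 0.16, adjusted p = 6.77e-05) was lost with quantile normalization and with the mean of its 6 probe sets. Another probe set of the gene was called in the other direction (-1.19, adjusted p = 0.00432), at low mean signals of 131.3 in the CLP and 37.4 in A. The remaining probe sets had means of 2390.3, 778.6, 533.6 and 201 in the CLP and, in the same order, 4548.9, 561.7, 955.3 and 251.4 in A. F against the CLP did not pass (-0.42 ± 0.18, adjusted p = 0.0527).

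The signal peptidase subunit Sec11c was the translocation gene that rose, to 14040.1 ± 681 in F against 8686 ± 645 in the CLP (0.69 ± 0.11, adjusted p = 2.31e-06), and it also rose in D against C (0.92 ± 0.12, adjusted p = 4.01e-07), both without overlap. Its partner Spcs2 fell in F against the CLP (-0.64 ± 0.16, adjusted p = 0.000843). Ssr1 and Ssr3, subunits of the translocon-associated protein complex, averaged 2681 ± 226 and 4611 ± 313 in F, and 4304 ± 605 and 8693 ± 452 in the CLP, and both fell (-0.67 ± 0.16, adjusted p = 0.000752 for Ssr1 and -0.91 ± 0.14, adjusted p = 1.34e-06 for Ssr3), without overlap.

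**Figure D5:**
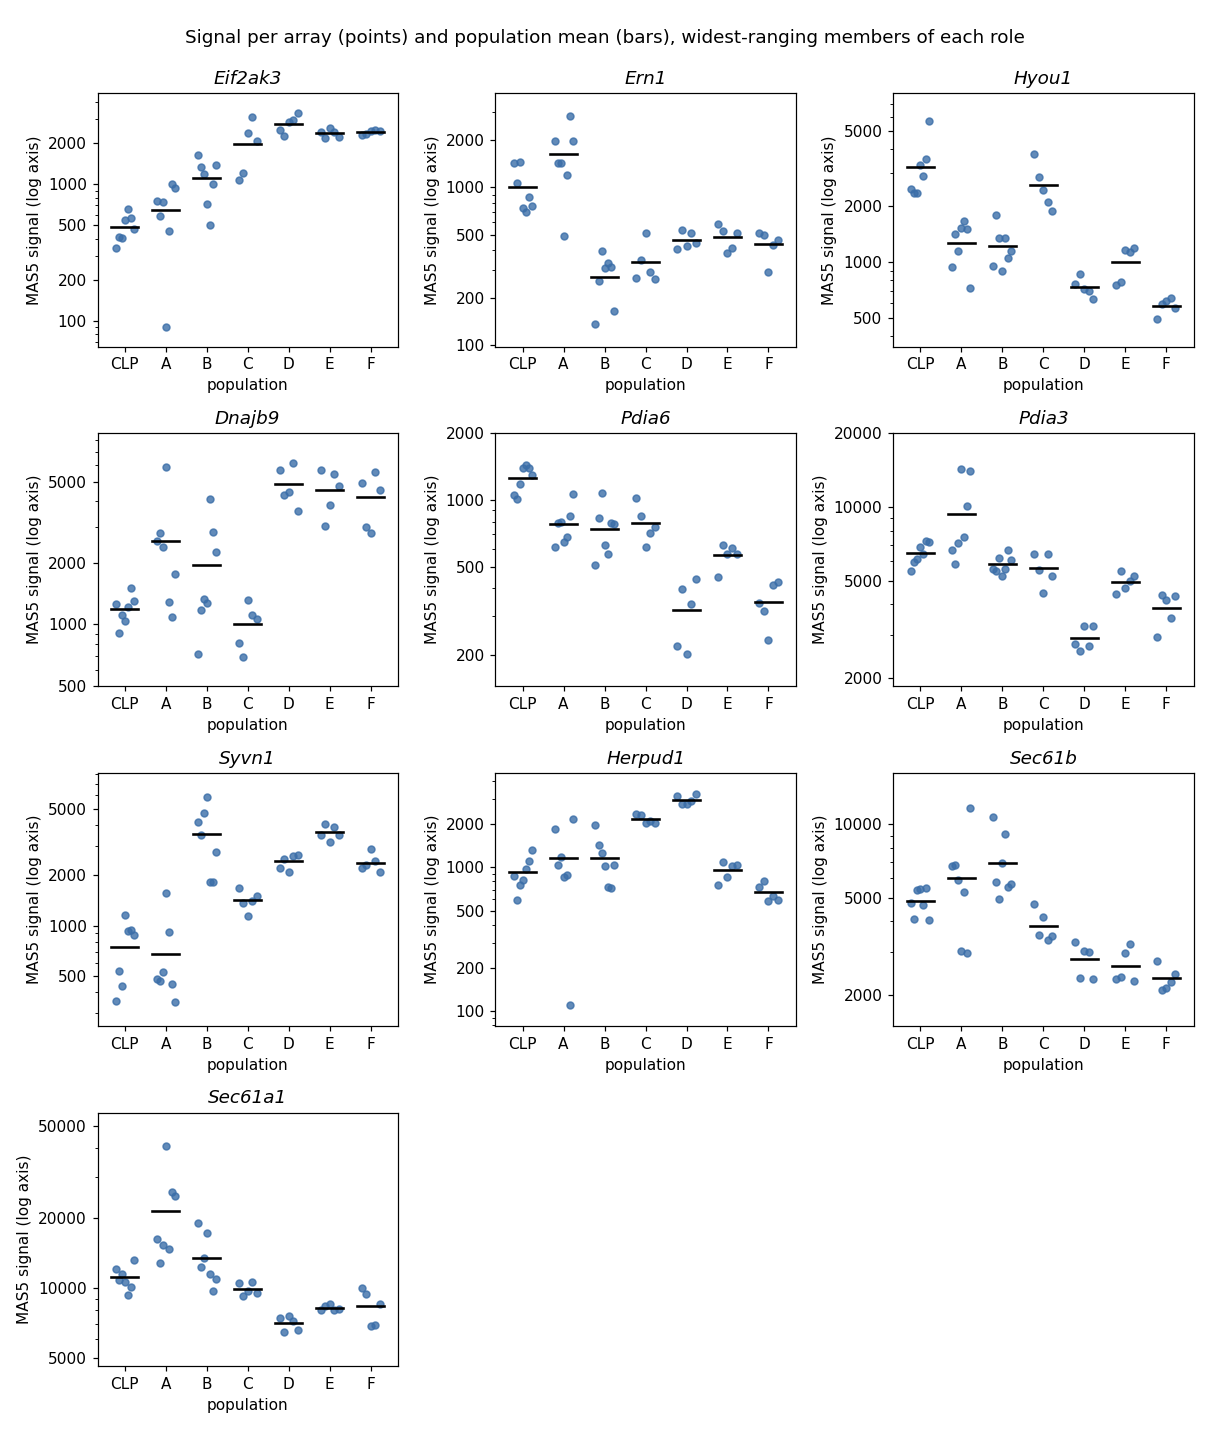
Signal per array (points, log axis) and group mean (bars) from the CLP to fraction F for Eif2ak3, Ern1, Hyou1, Dnajb9, Pdia6, Pdia3, Syvn1, Herpud1, Sec61b and Sec61a1. Pdia6 and Pdia3 are lower on every D array than on any C or E array, Dnajb9 is between 3603.5 and 6164.4 in D against at most 1321.7 in C, and A holds the lowest array of Eif2ak3 (90.7) and of Herpud1 (110.4).

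Fraction A stood apart in ways that touch every comparison with it. The correlation of an A array with the mean of the other A arrays was 0.829 to 0.957, against 0.963 to 0.985 for the CLP, and the 3′ to 5′ signal ratio of Gapdh, a measure of RNA integrity and amplification, was 12.7 ± 9.92 in A, against 4.17 ± 0.519 in the CLP (SD, n = 7 each). The summed signal of the 4 measured NK cell markers (Gzma, Ncr1, Klrd1 and Klrk1, of 5 listed) was 31436.5 to 57391.4 in A, against 476.3 to 1071.6 in the CLP, and all 4 were higher. The mean log2 of the 4 measured B lineage markers (of 5 listed) was 7.31 to 9.72 in A, against 10.72 to 11.70 in the CLP. Without A arrays 4, 6 and 7, an alternative added after seeing the data, 10 members were higher and 7 lower in A against the CLP (13.1% and 17.4% of all genes), and 3 higher and 7 lower in B against A (13.3% and 17.7%). Of the 5 plasmacytoid dendritic cell markers 3 were higher in A than in the CLP and 5 lower in B than in A, with a summed signal of 5139.4 to 14765.9 in A, against 3344.3 to 6777.5 in the CLP. In C against B all 6 neutrophil markers and all 4 NK markers were higher, with a summed neutrophil signal of 47665.9 to 63873.4 in C against 2567.2 to 17356.2 in B. The part of these cells and of RNA quality in the members' values was not tested.

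Other genes of the pathway were taken from lists that hold no member, chosen with earlier results of these data known. They are set beside the 26.6% of all genes lower and 15.2% higher in F against the CLP. Of 23 tested genes of translocation and N-glycosylation 12 fell (52.2%) and 1 rose (4.35%), led by Ddost (-2.17 ± 0.20, adjusted p = 4.84e-12) and Rpn2 (-1.95 ± 0.40, adjusted p = 0.000117), subunits of the oligosaccharyltransferase, while Srp14 of the signal recognition particle rose (0.45 ± 0.12, adjusted p = 0.00276). Of 12 further folding genes 5 fell (41.7%) and none rose, with the isomerase Pdia5 lowest (-1.64 ± 0.43, adjusted p = 0.00182). Of 8 further degradation genes 4 fell and none rose, led by the extraction ATPase Vcp (-1.15 ± 0.16, adjusted p = 1.81e-07). Vesicle transport went both ways, with 9 of 25 lower (36%) and 6 higher (24%): Sec24d, a COPII coat subunit, fell (-1.52 ± 0.38, adjusted p = 0.00134) and Kdelr3, a receptor that retrieves chaperones, rose (1.39 ± 0.36, adjusted p = 0.00168). Of 11 further stress response genes as many rose as fell: 2 fell, the PERK-ATF4 targets Asns (-2.20 ± 0.44, adjusted p = 7.14e-05) and Trib3 (-1.29 ± 0.42, adjusted p = 0.0124), and 2 rose, Ppp1r15a (1.03 ± 0.36, adjusted p = 0.0176) and Ppp1r15b (0.48 ± 0.19, adjusted p = 0.0421), which direct the phosphatase that reverses PERK's mark. The medians were -0.64 for translocation, -0.63 for folding, -0.46 for degradation, -0.35 for transport and -0.26 for stress, beside -0.15 for all genes.

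The members whose promoter holds an ERSE moved in both directions. In F against the CLP 5 of the 9 fell (Calr, Canx, Dnajc3, Creld2 and Pdia6), Syvn1 rose, and Hspa5, Hsp90b1 and Derl3 did not pass. Among the 22 measured members whose promoter in the table lacks it, 11 fell, 3 rose and 8 did not pass. The medians were -0.62 with ERSE and -0.59 without. In C against B 5 of the 9 with ERSE fell and 0 rose (median -0.64). Of the 22 without it 3 fell and 4 rose (median 0.18), where 8.8% of all genes were lower and 14.2% higher. In E against D the medians were 0.53 with ERSE and 0.15 without. The difference between the 2 sets was not tested, and member counts in C against B changed with the scaling.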

How the data were processed

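RNA of flow-sorted cells was extracted with Arcturus PicoPure and amplified with the NuGEN Ovation Pico system, per the labels. Per the submitters' processing notes the deposited files hold intensity values from MAS5, whose version is not given; with the top and bottom 2% of probe sets trimmed, each array had a mean of 500, so the authors had scaled them. The sources used here state no genome build. Sample titles gave the groups and replicate numbers.

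Of 45101 probe sets, 64 were controls, 34945 were annotated to a single gene, 932 to several, and 9211 were not listed. For each of 18193 genes the probe set of highest mean log2(signal + 32) was kept. The 11947 genes at or above the array median on at least 5 arrays were tested with limma 3.58.1 (R 4.3.3, statmod 1.5.0, data.table at version 1.17.8; linear fit, contrasts, empirical Bayes with trend, robust), all 41 arrays in 1 fit of 7 group means, with Benjamini-Hochberg adjustment over all genes and a threshold of 0.05. The added 32 understates the change of low signals. Differences carry standard errors. No 2 arrays held identical values, and the method was tested on simulated data.

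The members, gene lists and tests were chosen with earlier results of these data known. All members are named; signals per array are given for Xbp1, Jchain, Sdc1 and Hspa5 and, in each other role, for the members with the widest range of group means, up to 2; genes of the other lists are named where they had the largest called difference in a direction, with a second fall or rise named after its values were seen. Alternatives were pseudocounts of 1 and 128, no filter or the 75th percentile as filter, quantile normalization, centring on array medians, averaged probe sets per gene, the replicate number as a block, array weights, a fit of the compared groups alone and each array left out. Leaving out A arrays 4, 6 and 7, and testing each probe set, were added after seeing the data. Same-numbered arrays were checked for shared deviations; in none of the 8 comparisons did every pair correlate above 0.1, so the numbers were not taken as pairs.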

Additional observations from a re-analysis of the deposited data

Results flagged for a closer look

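Among the genes given array by array, 98 sets of 5 or 7 arrays were checked for a single array far from its group on the log2 scale, and 4 had one; chance alone flags about 1 in 20 such sets. Jchain on E array 2 was 164.9, and the nearest other E array had 43.4. The same array had the highest summed neutrophil marker signal of E, 81988.9, and their relation was not tested. Sdc1 on E array 1 was 130.8, and the nearest other E array had 171.4. Eif2ak3 on A array 4 was 90.7, and the nearest other A array had 452.7. Herpud1 on A array 6 was 110.4, and the nearest other A array had 854.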

How the results depend on the processing

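In its calls, F against the CLP was the comparison least changed by the alternatives run: without single arrays 6 to 7 members were higher and 18 to 19 lower, and 33 to 35 members passed the F-test. Its member median ran from -0.62 without CLP array 2 to -0.39 without CLP array 7. CLP arrays 6 and 7, which had the highest member means, were not left out together. Quantile normalization gave 5 higher in A against the CLP (9 as reported), 3 higher and 6 lower in C against B (5 and 10), and 3 higher and 16 lower in B against the CLP (6 and 10). Median centring gave 5 lower in A against the CLP (8), 3 lower in B against A (9), 2 higher and 17 lower in C against B, and 13 higher and 6 lower in B against the CLP. Averaging probe sets gave 4 higher in A against the CLP, 8 higher and 4 lower in C against B, 2 higher in E against D (4) and 2 higher in B against the CLP. Array weights gave 8 higher and 17 lower in C against B, 9 higher and 16 lower in D against C (5 and 8), 14 higher in E against D and 6 lower in F against E (0). The shares of all genes rose with the weights too, to 22.8% higher and 15.8% lower in C against B and 18.5% and 27.6% in D against C. The fit of the compared groups alone gave 3 lower in B against A, 15 lower in D against C, 15 higher in E against D and 9 lower in F against E. The shares of all genes in that fit were 6.29%, 26.5%, 12.8% and 2.4% in the same order. Without single arrays, members lower in D against C numbered 5 to 9, where 10.8% to 12.7% of all genes were lower. With the replicate block, F against the CLP had 7 higher and 18 lower, C against B 6 higher and 10 lower, and E against D 4 higher and 2 lower. All genes then had 15.4% and 26.5%, 14.2% and 9.18%, and 4.02% and 4.36% in the same order. The labels do not say what the numbers stand for. In E against D and in F against E 4 of 5 pairs correlated best with their own number, and same-number correlations were 0.035 to 0.127 and 0.050 to 0.120. Whether same-numbered arrays of D, E and F share a preparation was not tested.

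Signs turned under quantile normalization for Sec11c in A against the CLP (-0.0400), C against B (0.12) and B against the CLP (-0.24), for Ssr3 in A against the CLP (-0.43), and in B against the CLP for Hsp90b1 (-0.49) and Sec61a1 (-0.42). They turned with averaged probe sets for Canx (-0.49), Dnajc3 (-0.0520), Pdia3 (-0.20), Ssr1 (-0.0327) and Ssr3 (-0.33) in A against the CLP, Pdia3 in B against A (0.0810), Sec11c in C against B (0.43), and in B against the CLP Dnajc3 (-0.50), Sec61a1 (-0.42) and Sec11c (-0.11). The causes were not tested. Probe sets of 1 gene were called in opposite directions for Dnajc3, Pdia3 and Sec61a1 in A against the CLP and for Dnajc3 and Sec11c in C against B.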
